A study of Mus musculus with 6 samples.

Results

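The nuclear genes of the mitochondrial respiratory chain were examined in mouse Th17 cells that carry either wild-type RORγt or the RORγtN275D variant. Members were taken by gene symbol, as every row of the deposited table whose symbol begins with Nduf, Uqcr, Atp5 or Cox followed by a digit from 4 to 8, together with the genes of succinate dehydrogenase (Sdha, Sdhb, Sdhc and Sdhd), Cyc1 and Cycs. The rule used names and no measured value, and it took 96 of the 16244 genes listed. It gave 37 subunits of complex I, 4 of complex II, 9 of complex III, 15 of complex IV and 17 of complex V, the electron carrier cytochrome c, 8 assembly factors of complex I (the Ndufaf genes) and 5 other genes. The 5 others were Cox7a2l, Ndufa4l2 and the gene copies Ndufb4b, Ndufb4c and Ndufs6b. Subunits that the mitochondrial genome encodes were not analysed here.

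The respiratory chain sits in the inner mitochondrial membrane. Complex I takes electrons from NADH and complex II takes them from succinate, and both pass them through coenzyme Q to complex III, from which cytochrome c carries them to complex IV, where oxygen is reduced. Complexes I, III and IV pump protons, and complex V, the ATP synthase, uses the resulting gradient to make ATP. Activated T cells that divide rapidly draw on glycolysis as well as on this chain, and a shift between them is part of how helper T cell subsets are described.

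RORγt is the lineage-defining transcription factor of Th17 cells, and N275D replaces an asparagine of that protein with aspartate. Naive CD4+ T cells from WT mice and from RORγtN275D knockin mice were activated and kept for 3 days in IL-6, IL-1β and IL-23, conditions that give pathogenic Th17 cells, to which the methods add TGF-β and antibodies that block IL-4 and IFN-γ, and 3 RNA-seq libraries of each genotype were analysed. The study asked how the variant changes the transcriptome of these inflammatory cells. The labels give spleen as the tissue, Th17 cell as the cell type, and WT or Mut as the genotype.

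According to the methods, mice were generally 6 to 12 weeks old, the knockin allele was carried on a C57BL/6 background, and WT C57BL/6 mice were bought from a supplier. The labels do not say whether the mutant donors of these libraries carried one or both mutant copies, or whether the WT donors were littermates, so differences of source and of the allele cannot be told apart. The methods define n in general as independent samples, mice or experiments, but neither they nor the labels say which of these the 3 libraries of a genotype are, so p-values measure only the spread between libraries, which may be technical. In bulk RNA, fewer cells of a type and less RNA per cell cannot be told apart.

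Libraries held 17659035 to 18510878 reads on genes, and replicates differed from each other by 1.61 to 5.67 times the chi-square per gene that counting alone would give. WT replicate 3 was in both of the pairs above 2.02. Of 7 Th17 cell markers, among them Cd4, Il17a and Il23r, 4 rose and 3 fell, with a summed level of 73274 to 77254 normalized reads in WT and 85075 to 85816 in N275D. The substitution itself cannot be checked from gene-level values. Of the B cell markers, 4 of 6 rose, and their summed level was 1117 to 1155 in WT and 1687 to 1754 in N275D, with Ebf1 contributing most and Ms4a1 at 0 to 9.88. Of the 4 CD8 T and natural killer cell markers listed, 2 rose (summed level 182 to 195 in WT and 251 to 281 in N275D). Of the 7 myeloid markers, 1 rose and 1 was called lower (47.4 to 52.5 against 44.1 to 58.9), and S100a8 and S100a9 were at 0 or 1 read. The gene called lower, Adgre1, passed the filter given below only through its WT level, so its call is no evidence of a fall. Summed levels were separate between genotypes for the Th17, B cell, and CD8 T and natural killer cell markers, and overlapped for the myeloid markers. The part of these markers in the results below was not tested.

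A normalized read is a read counted on a gene and multiplied by 1 scaling factor per library. Each gene with a mean of at least 10 normalized reads over the 6 libraries was tested with limma on log2(normalized reads + 1), with Benjamini-Hochberg adjustment of p over the 11908 genes tested. A gene is called higher or lower at an adjusted p under 0.05, and fold changes are N275D over WT on that log2 scale, which understates the change of low genes. Of the 96 members, 92 passed the filter. The 4 that did not were Cox4i2, Ndufa4l2, Ndufb4b and Ndufs6b, none of which exceeded 4 normalized reads rounded to a whole number in any library. Cox6a2 passed only through its level in N275D, so its call is no evidence of a rise.

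In N275D Th17 cells, respiratory chain genes were called lower far more than higher, while the largest group was not called. Of the 92 members tested, 39 fell, 4 were called higher (Cox6a2 among them) and 49 were not called, and the sign of the fold change was negative in 77. Falls were small, since the median member had a log2 fold change of -0.11 against -0.0026 for all genes tested, and no fall reached 2-fold. The only member past 2-fold was Cox6a2, upward. Over all genes tested, 26.1% were called lower and 24.7% higher, so the share of members called lower (42.4%) stood above that background and the share called higher (4.35%) below it. All 3 N275D libraries lay below all 3 WT libraries for 36 members and above them for 3, where 29.6% and 28.1% of all genes tested did so. For 1 gene alone, the smallest two-sided p that exact permutation of 3 and 3 libraries allows is 0.1, so calls rest on the limma fit over all genes.

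**Figure D1:**
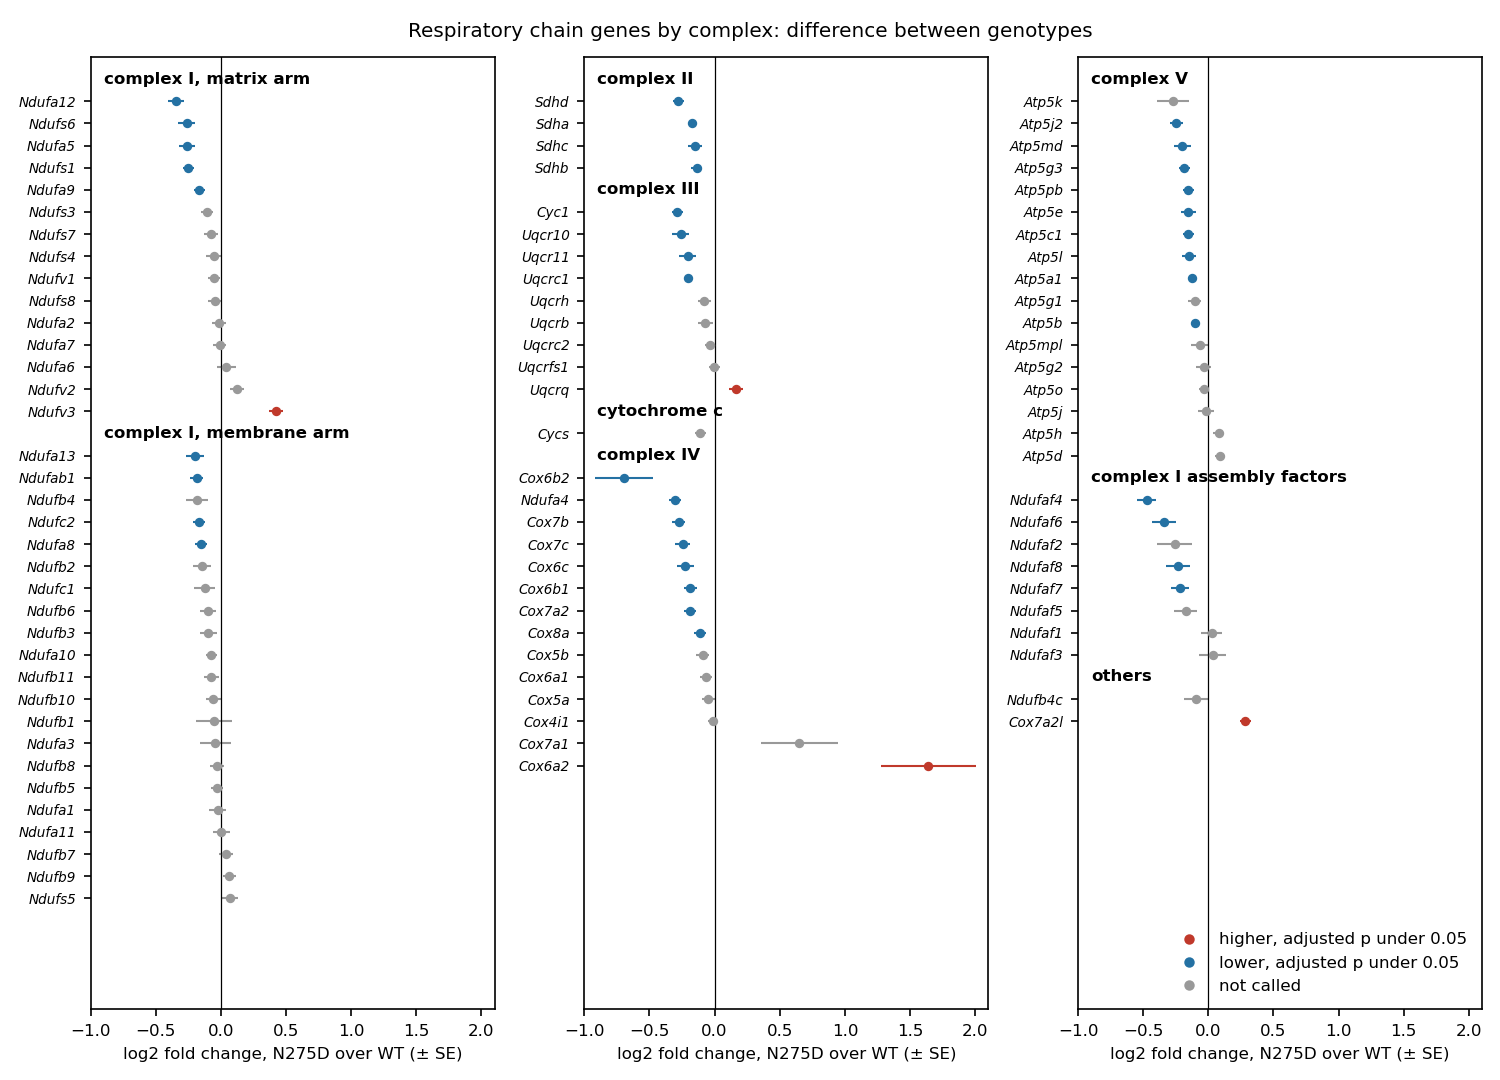
Log2 fold change of 91 of the 92 members tested, N275D over WT (horizontal axis), grouped by complex, with bars of 1 standard error from limma. Blue points are 38 members called lower, red points the 4 called higher (Ndufv3, Cox7a2l, Uqcrq and Cox6a2, which passed the filter only through N275D), and most points lie a little to the left of 0.

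Members are abundant, and in N275D the share of genes called lower grew with their level up to a mean of 10000. The median member had a mean of 1255 normalized reads and the median gene tested 580. Among the 4220 genes whose mean reached 1000, 40.7% were called lower and the median log2 fold change was -0.064. Of the 55 members at that level, 30 fell (54.5%) and 3 rose, with a median of -0.11. Between 300 and 1000 normalized reads, 6 of 27 members fell, a share no larger than the 24.4% of all genes in that range. Between 1000 and 3000, 21 of 40 members fell, against 38.1% of all genes there, and between 3000 and 10000 it was 7 of 13 against 47.8%. Few members lay outside these ranges, with 1 of 3 lower between 10 and 100 normalized reads, against 9.33% of all genes, 2 of 7 between 100 and 300, against 16.9%, and 2 of 2 above 10000, against 41.6%. The median log2 fold change of members was below that of all genes in each range from 100 upward, at -0.18 against 0.076 between 100 and 300, -0.072 against -0.0041 between 300 and 1000, -0.14 against -0.058 between 1000 and 3000, -0.11 against -0.090 between 3000 and 10000, and -0.11 against -0.047 above.

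**Figure D2:**
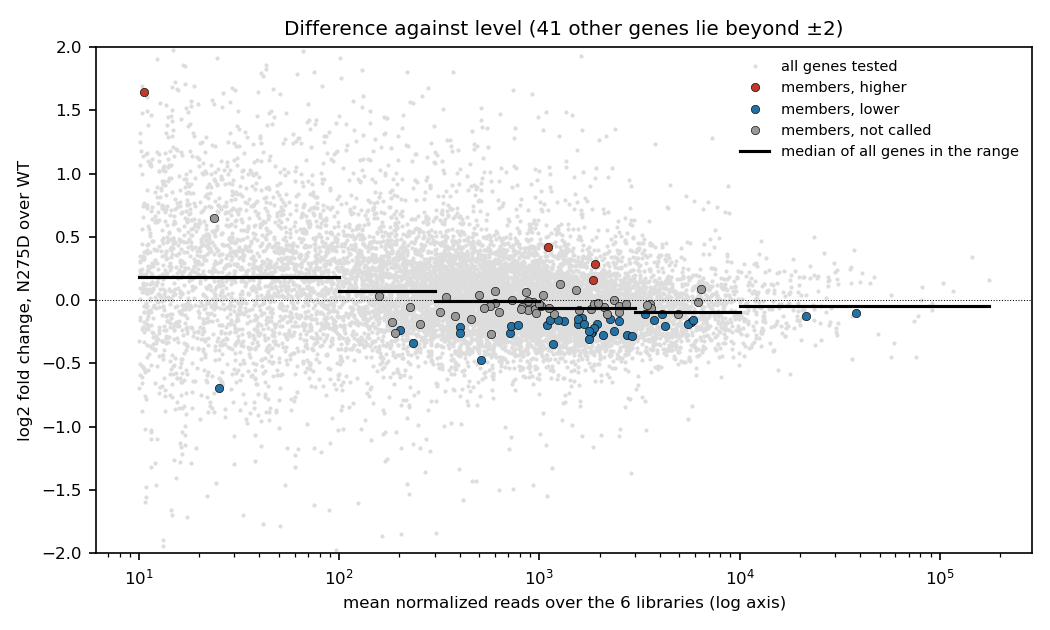
Log2 fold change (vertical axis) against mean normalized reads over the 6 libraries (horizontal log axis), with all genes tested in grey and the 92 members as outlined points. Black lines are medians of all genes per range of level, which go from 0.18 at 10 to 100 normalized reads to -0.090 at 3000 to 10000, and most members above 1000 lie at or below the line.

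How the libraries are scaled matters for shifts of this size. When the log2 values were instead centred on abundant genes (mean 1000 or more), an alternative chosen after seeing the data, 19 members fell and 8 rose, the median member was at -0.040, and 18.2% of all genes were called lower and 32.5% higher. Under the deposited scaling 90.7% of the members' calls were lower and 48.7% of all calls were higher, and with that centring the values were 70.4% and 64.1%. Among named members, Ndufaf4, Ndufa12, Ndufa4, Cyc1, Sdhd, Cox7b and Atp5j2 fell and Ndufv3, Cox7a2l and Uqcrq rose under both scalings. The calls of Atp5a1, Atp5b, Atp5c1, Atp5md, Sdhb, Sdhc, Cox6b1, Cox8a and Ndufa13 were lost with that centring (adjusted p = 0.0501 to 0.406). Quantile normalization ended those of Sdha, Sdhb, Sdhc, Atp5c1 and Cox8a (adjusted p = 0.0536 to 0.490), and eBayes without a trend those of Atp5b, Atp5md, Sdhc, Uqcr10, Uqcrq, Cox8a and Ndufa13 (adjusted p = 0.0559 to 0.150).

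The spread between WT libraries was uneven. Relative to the WT mean, the median member lay at -0.010, -0.046 and 0.063 on the log2 scale in WT replicates 1, 2 and 3 and at -0.13, -0.10 and -0.11 in the N275D libraries. All 3 N275D medians were therefore below all 3 WT medians. The 39 members with transcripts shorter than 700 nucleotides sat 0.14 higher (median, log2) in WT replicate 3 than in the mean of the other WT libraries, and the 51 longer ones 0.041 higher, where all shorter and longer genes tested gave 0.092 and 0.0067. Of the shorter members 16 fell and 3 rose, and of the longer 23 fell and 1 rose, with medians of -0.079 and -0.11. Among all 303 shorter genes tested, 79 fell and 52 rose, with a median of -0.036. Without WT replicate 3, 35 members fell and 6 rose, with a median of -0.078.

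Summed over its subunits, each of the 5 complexes was lower in N275D under the deposited scaling, with all 3 N275D libraries below all 3 WT libraries. Under that scaling all genes with a mean of at least 1000 had a median log2 fold change of -0.064, so part of each fall is shared with abundant genes. The median subunit of complex I, at -0.072, lay close to that value. Sums were not repeated with centring on abundant genes. Complex I summed to 40938 ± 933 normalized reads in WT and to 38725 ± 562 in N275D (SD, n = 3 each), a change of -5.41%. Complex II went from 12394 ± 268 to 10871 ± 90.8, a change of -12.3%, the largest among the complexes. Complex III went from 20661 ± 577 to 19059 ± 149 (-7.75%), and complex IV from 32001 ± 1734 to 29263 ± 347 (-8.56%). The sum for complex V, which held the most reads, went from 103668 ± 1880 to 96588 ± 1185 (-6.83%). Of that WT sum, Atp5b held 39428 and Atp5a1 22459. Cycs, the only gene of its class, overlapped between genotypes (-7.32%), and the 8 assembly factors of complex I changed by -15.2%. All members together took 1.19% to 1.23% of normalized reads in WT and 1.14% to 1.16% in N275D. Without WT replicate 3 the change was -4.30% for complex I, -11.3% for II, -6.27% for III, -5.70% for IV and -5.96% for V.

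**Figure D3:**
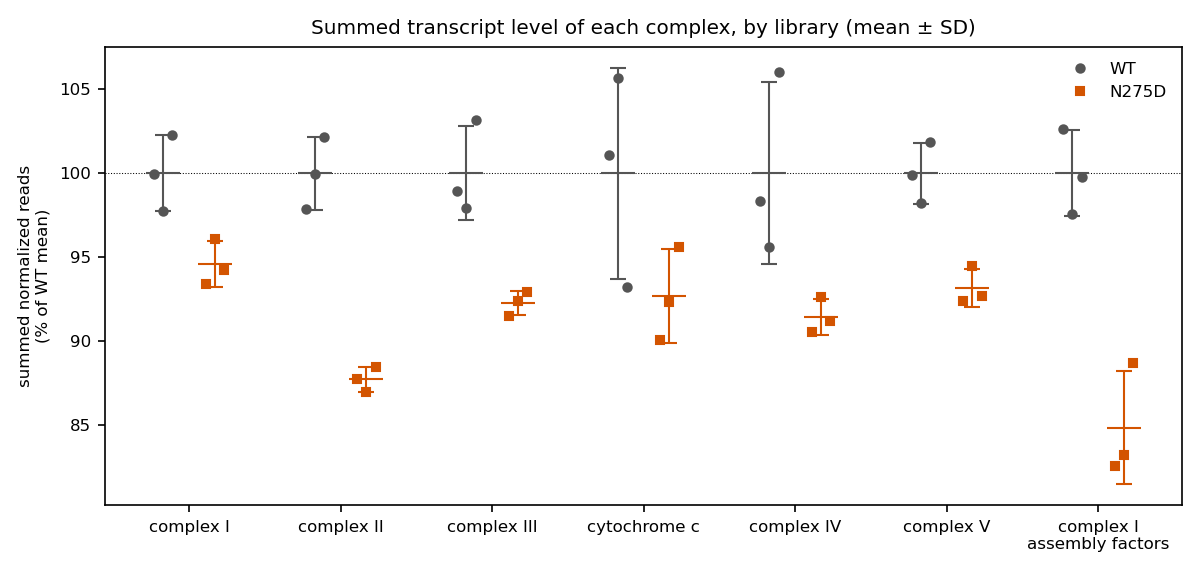
Summed normalized reads of each complex in every library, as a percentage of the WT mean (vertical axis, which does not start at 0), with the mean and SD of each genotype (n = 3). N275D libraries (squares) lie below every WT library (circles) in complexes I to V and in the complex I assembly factors, and the genotypes overlap for cytochrome c.

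Per kilobase of transcript, levels in WT cells were highest in complexes IV and V. Transcript lengths were medians over the protein-coding transcripts of GENCODE M21, which gave a length for 92 of 96 members. These medians do not weigh transcripts by their use in these cells, so per-kb values and ranks are approximate. For Ndufb2 and Atp5g1, for example, the lengths were 2413 and 2675.5 nucleotides. Atp5b, the catalytic beta subunit of the ATP synthase, had 20578 ± 215 normalized reads per kb in WT (SD, n = 3), followed by Atp5a1, the alpha subunit, at 8731 ± 55.7 and Cox4i1 at 8246 ± 58.3. Cox4i1 and Atp5g3, at 8177 ± 307, did not differ beyond their spread. The median per-kb level was 3476 for the 15 complex IV genes and 3282 for the 17 complex V genes. It was 2087 for complex III, 1791 for complex II and 1311 for 36 complex I genes, and 214 for the complex I assembly factors. No complex I subunit exceeded 2433 normalized reads per kb, the value of Ndufc2, a subunit of the membrane arm named here after its value was seen.

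Complex I is an L-shaped assembly with a matrix arm, which oxidizes NADH and passes electrons to coenzyme Q, and a membrane arm, which pumps protons. Of its 37 subunits, all tested, 10 fell, 1 rose and 26 were not called, with a median log2 fold change of -0.072. Each gene was grouped with 1 arm only, Ndufab1 with the membrane arm. On that grouping, lower calls were 6 of 16 in the matrix arm and 4 of 21 in the membrane arm. The share called lower in the complex as a whole (27.0%) was close to that of all genes tested.

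The largest change in complex I was a rise. Ndufv3, an accessory subunit of the module that takes electrons from NADH (GRCm38 chromosome 17, 31520115 to 31531326), had 967, 884 and 982 normalized reads in the WT libraries and 1214, 1323 and 1263 in the N275D libraries. Every N275D library exceeded every WT library, by a log2 fold change of 0.42 (SE 0.054, limma adjusted p = 7.71e-06). Its call held without each library in turn, with a log2 fold change between 0.38 and 0.45.

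Beside it in the same arm, Ndufa12, an accessory subunit at the joint between the arms, had 1287, 1334 and 1287 normalized reads in WT and 955, 1137 and 993 in N275D. Its log2 fold change of -0.34 (SE 0.059, limma adjusted p = 0.000150) was the largest fall among subunits of complex I. Ndufs6, a zinc-binding accessory subunit, went from 743, 729 and 865 to 626, 652 and 667 normalized reads, a log2 fold change of -0.26 (SE 0.065, adjusted p = 0.00328). Genotypes did not overlap for either gene. Thus accessory subunits of one arm moved in opposite directions.

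The core subunits of the matrix arm, which hold the redox centres, also differed among themselves. Ndufs1, which carries iron-sulfur clusters, had 1990 ± 89.3 normalized reads in WT and 1674 ± 42 in N275D (SD, n = 3 each) and was called lower (log2 fold change -0.25, SE 0.045, adjusted p = 0.000268). Ndufv1, which binds FMN and receives the electrons of NADH, was not called at 2134 ± 57.6 against 2061 ± 86.5 (-0.051, SE 0.044, adjusted p = 0.353).

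Among genes grouped here with the membrane arm, the largest falls were in Ndufa13, also known as GRIM-19, and in Ndufab1, the mitochondrial acyl carrier protein. Ndufa13 had 1192, 1002 and 1302 normalized reads in WT and 998, 1015 and 1015 in N275D. These values overlapped, because WT replicate 2 lay within the range of N275D, and the call (-0.20, SE 0.072, adjusted p = 0.0292) was lost without any library other than WT replicate 2 (adjusted p = 0.0660 to 0.0922). Ndufab1 went from 1586, 1619 and 1749 to 1418, 1501 and 1433 without overlap (-0.19, SE 0.048, adjusted p = 0.00428). Ndufab1 also serves fatty acid synthesis and iron-sulfur cluster formation in mitochondria, so it is not particular to complex I.

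The genes Ndufb4 and Ndufb4c are near-identical copies, between which the counting could have split reads. Ndufb4 had 289, 266 and 256 normalized reads in WT and 258, 242 and 215 in N275D, and Ndufb4c had 298, 344 and 339 and 260, 341 and 323. Neither was called, and their separate values are uncertain. Many other members have processed pseudogenes elsewhere in the genome, and how reads with several matches were counted is not given in the sources used here.

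Complex I is built with dedicated assembly factors, and 4 of the 8 in the Ndufaf family fell while none rose by limma (4 of 8 also had an unadjusted p under 0.05). Their median log2 fold change was -0.22, and the 50% called lower compares with 26.1% of all genes tested. Ndufaf4 (GRCm38 chromosome 4, 24898083 to 24905001), which acts in building the matrix arm, had 638, 630 and 526 normalized reads in WT and 416, 420 and 451 in N275D. All N275D libraries lay below all WT libraries, and the log2 fold change of -0.47 (SE 0.074, limma adjusted p = 6.62e-05) was the largest fall of any member with a mean above 100. Without each library in turn it stayed between -0.56 and -0.42 and was called each time. Ndufaf6 went from 244, 247 and 289 to 193, 196 and 228 normalized reads, again without overlap (-0.34, SE 0.092, adjusted p = 0.00593).

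Complex II, succinate dehydrogenase, is both a respiratory complex and an enzyme of the tricarboxylic acid cycle, and its subunits are all nuclear encoded. All 4 fell, and for each of them every N275D library was below every WT library. For comparison, 26.1% of all genes tested were called lower, and 40.7% of those with a mean of at least 1000. Of all genes tested, 29.6% lay wholly below WT. Sdhd, a membrane anchor, had 2912, 2928 and 3197 normalized reads in WT and 2498, 2446 and 2505 in N275D, the largest change of the complex (-0.28, SE 0.043, limma adjusted p = 6.16e-05). Sdha, the flavoprotein that oxidizes succinate, went from 5931, 6268 and 5905 to 5325, 5354 and 5407 (-0.17, SE 0.036, adjusted p = 0.000991).

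The other subunits of complex II changed by less. Sdhc, the other anchor, had 1633 ± 118 normalized reads in WT and 1469 ± 34.3 in N275D (SD, n = 3 each; log2 fold change -0.15, SE 0.052, adjusted p = 0.0235). Sdhb, the iron-sulfur protein, went from 1714 ± 75.3 to 1556 ± 9.01 (-0.14, SE 0.045, adjusted p = 0.0165). The call of Sdhc was lost without WT replicate 3, N275D replicate 2 or N275D replicate 3 (adjusted p = 0.0547 to 0.101), and that of Sdhb without N275D replicate 1 or 2 (adjusted p = 0.0536 and 0.0602). Quantile normalization ended the calls of Sdha (adjusted p = 0.0593), Sdhb (0.110) and Sdhc (0.133). Sdhd kept its call in each of these fits.

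Complex III passes electrons from coenzyme Q to cytochrome c. Of its 9 genes 4 fell, 1 rose and 4 were not called, with a median log2 fold change of -0.079. Cyc1 (GRCm38 chromosome 15, 76343513 to 76346260), the cytochrome c1 subunit, had 3159, 2986 and 3373 normalized reads in WT and 2598, 2619 and 2585 in N275D. The N275D libraries were all lower and lay close together, and Cyc1 showed the largest fall of the complex (-0.28, SE 0.045, limma adjusted p = 6.51e-05). Uqcr10, a small subunit beside it, went from 1925, 1778 and 2246 to 1680, 1655 and 1610 (-0.26, SE 0.064, adjusted p = 0.00307).

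The other subunits examined in complex III did not move as a set. Uqcrc1, a core protein on the matrix side, fell from 4532 ± 141 to 3942 ± 43.7 normalized reads (SD, n = 3 each; log2 fold change -0.20, SE 0.037, adjusted p = 0.000309). Uqcrfs1, the Rieske iron-sulfur protein, had 2365 ± 53.1 and 2364 ± 67.6 (-0.00068, SE 0.041, adjusted p = 0.992), the smallest difference among the core subunits examined. The small subunit Uqcrq rose, from 1715, 1677 and 1884 to 1900, 1881 and 2126. Its genotypes overlapped at the edge, with N275D replicate 2 just under WT replicate 3, and its call (0.16, SE 0.055, adjusted p = 0.0213) was lost without WT replicate 1, WT replicate 2 or N275D replicate 3 (adjusted p = 0.0742 to 0.148).

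Cytochrome c itself, encoded in somatic cells by Cycs, had 5167, 5403 and 4767 normalized reads in WT and 4604, 4721 and 4888 in N275D. WT replicate 3 lay inside the N275D range, and the gene was not called (-0.11, SE 0.045, limma adjusted p = 0.0538). Without that library the log2 fold change was -0.16 (adjusted p = 0.000293).

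**Figure D4:**
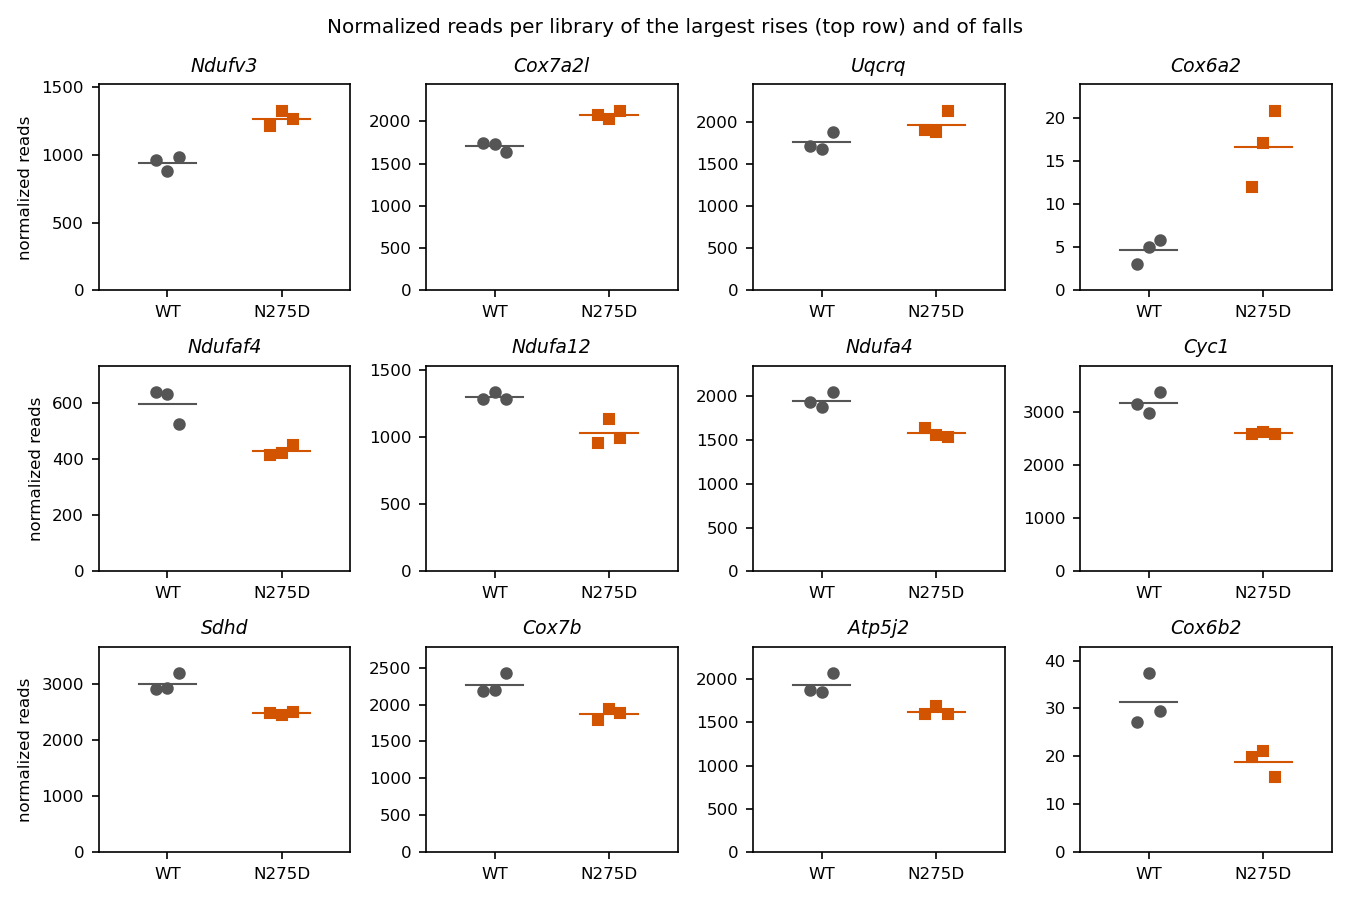
Normalized reads (vertical axes, from 0) of 12 members in the 3 WT (circles) and 3 N275D (squares) libraries, with lines at the group means. The top row holds the 4 members called higher and the lower rows falls in complexes I to V and an assembly factor. Genotypes overlap for Uqcrq only.

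Complex IV, cytochrome c oxidase, transfers electrons to oxygen. Of its 15 genes 14 were tested, of which 8 fell, 1 was called higher (Cox6a2, described below) and 5 were not called. The median log2 fold change was -0.15. The share called lower, 57.1%, compares with 26.1% of all genes tested and 40.7% of abundant ones (mean 1000 or more). That share includes Cox6b2, a low form described below. Several subunits of complex IV exist as a widely expressed form and a form found mainly in particular tissues. The widely expressed forms held nearly all reads here.

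Ndufa4, once counted with complex I and now with complex IV, had 1930, 1872 and 2044 normalized reads in WT and 1640, 1555 and 1535 in N275D. This was the largest fall of the complex among genes with a mean above 100 (-0.31, SE 0.047, limma adjusted p = 5.14e-05). Cox7b went from 2177, 2200 and 2421 to 1792, 1937 and 1885 (-0.28, SE 0.049, adjusted p = 0.000210). For both genes the genotypes were separate.

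The widely expressed forms with a tissue-specific partner fell or were not called. Cox6b1 fell from 1936, 2062 and 2206 to 1765, 1887 and 1787 normalized reads (-0.19, SE 0.050, adjusted p = 0.00509), a call lost with centring on abundant genes (adjusted p = 0.0501). Cox7a2 fell from 1831, 1650 and 1845 to 1559, 1544 and 1565 (-0.19, SE 0.048, adjusted p = 0.00402). Genotypes were separate for each. Cox8a went from 4226, 3997 and 4527 to 3955, 3957 and 3880, a small fall (-0.11, SE 0.044, adjusted p = 0.0436) whose call was lost without any library other than WT replicate 2 (adjusted p = 0.0810 to 0.131). The most abundant of them per kb, Cox4i1, had 6187, 6217 and 6274 normalized reads in WT and 5981, 6319 and 6180 in N275D, and was not called (-0.016, SE 0.035, adjusted p = 0.732). Cox6a1 was not called at 3579, 3553 and 3910 against 3640, 3557 and 3358 (-0.065, SE 0.045, adjusted p = 0.249).

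Cox5a and Cox5b, nuclear subunits close to the catalytic core, were not called either. Cox5a had 2530 ± 195 and 2442 ± 33.3 normalized reads (SD, n = 3 each; -0.049, adjusted p = 0.434), and Cox5b 2590 ± 186 and 2428 ± 69.0 (-0.091, adjusted p = 0.135).

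The tissue-restricted forms were all low. Cox6a2, the heart and muscle form, had 3.03, 5.04 and 5.89 normalized reads in WT and 12, 17.1 and 20.7 in N275D. These are 14 reads in all against 50, and the log2 fold change was 1.64, the only one of a member past 2-fold. It is given as a description, without a test, because the gene passed the filter only through N275D and fell under it without N275D replicate 2 or 3. Per kb it stood at 6.85 in WT and 24.4 in N275D, against 6446 and 6162 for Cox6a1, so it remained a minor form.

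Cox6b2, a form found mainly in testis, went the other way, from 27.3, 37.3 and 29.5 to 19.97, 21.1 and 15.8 normalized reads (-0.70, SE 0.22, adjusted p = 0.0153), a call lost without WT replicate 2 (adjusted p = 0.0817) or N275D replicate 3 (adjusted p = 0.0619). Cox7a1, a heart and muscle form, had 14.1, 12.1 and 31.4 in WT and 29.9, 29.1 and 25.7 in N275D. Its WT replicate 3 was as high as the N275D libraries, and it was not called (0.65, SE 0.29, adjusted p = 0.0766), though without that library the log2 fold change was 1.05 (adjusted p = 0.00171). Whether the low forms share a direction cannot be judged, since Cox6a2 passed the filter only through N275D and Cox7a1 was not called.

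Cox4i2 and Ndufa4l2 are forms that low oxygen induces in other cells. Cox4i2 had 2.02, 1.01 and 1.96 normalized reads in WT and 2.99, 0 and 1.98 in N275D, and Ndufa4l2 had a single read in WT replicate 1 and 0 in the other 5 libraries. Both were at or under 3 reads in every library, so a difference was not detectable at this depth. Of 2 further genes that a list of hypoxia-linked respiratory chain genes held, Lonp1, a mitochondrial protease, rose from 5738, 5870 and 6274 to 8417, 8375 and 8251 (0.49, adjusted p = 3.50e-08). Higd1a, which binds complex IV, rose from 2077, 1786 and 2023 to 2448, 2431 and 2312 (0.29, adjusted p = 0.000252). Genotypes were separate for both.

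Complex V, the ATP synthase, consists of the catalytic F1 head in the matrix and the FO part in the membrane, joined by stalks. Of its 17 genes, 9 fell and none rose by limma (12 had an unadjusted p under 0.05), with a median log2 fold change of -0.12. Thus 52.9% were called lower, against 26.1% of all genes tested and 40.7% of those with a mean of at least 1000. Lower calls were 4 of 5 in F1 and 5 of 12 in FO and the stalks. These shares depend on the scaling. With centring on abundant genes, all 4 calls in F1 and those of Atp5l, Atp5md and Atp5pb were lost. Atp5d and Atp5h were then called higher.

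The head subunits are the most abundant transcripts of the chain. Atp5b had 39451, 39006 and 39828 normalized reads in WT and 36016, 37160 and 36950 in N275D (-0.10, SE 0.030, limma adjusted p = 0.00988). Atp5a1 had 22578, 22300 and 22501 and 20701, 20842 and 20294 (-0.12, SE 0.031, adjusted p = 0.00308). Genotypes were separate for each, and the call of Atp5b was lost without N275D replicate 1 (adjusted p = 0.0585). Atp5c1, the gamma subunit that turns within the head, fell from 3918 ± 155 to 3523 ± 72.7 (SD, n = 3 each; -0.15, SE 0.040, adjusted p = 0.00445), a call lost with quantile normalization (adjusted p = 0.0536) and with centring on abundant genes (adjusted p = 0.0796).

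In the membrane part, Atp5j2, the f subunit, had 1866, 1847 and 2062 normalized reads in WT and 1588, 1682 and 1596 in N275D, the largest fall called in complex V (-0.25, SE 0.049, adjusted p = 0.000615). Atp5md, a small subunit linked to pairing of ATP synthases, went from 840, 808 and 864 to 672, 801 and 720 (-0.20, SE 0.063, adjusted p = 0.0143), and its call was lost without N275D replicate 1 or 3 (adjusted p = 0.10 and 0.0522). Genotypes were separate for both genes.

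Cox7a2l, which resembles the Cox7a subunits but is described as a factor that joins complexes III and IV into a supercomplex, rose. It had 1739, 1735 and 1642 normalized reads in WT and 2076, 2029 and 2119 in N275D (GRCm38 chromosome 17, 83501917 to 83514333). All N275D libraries were higher, with a log2 fold change of 0.28 (SE 0.043, limma adjusted p = 4.60e-05), and the call held without each library in turn (0.26 to 0.30). The similar gene Cox7a2 fell, as given above. Whether the Cox7a2l protein of this mouse strain joins the complexes was not tested. The rise in Cox7a2l RNA is therefore no measure of supercomplexes.

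Genes that work beside the chain were taken from lists written from general knowledge. Of 51 assembly factors outside the symbol rule, 15 fell and 4 rose, with a median log2 fold change of -0.11. By complex, 3 of 10 fell for complex I, 1 of 6 for complex III, 9 of 26 for complex IV and 2 of 5 for complex V, and for complex II limma called none of 4, of which 2 had an unadjusted p under 0.05. Acad9, which assembles complex I, had 1199, 1238 and 1228 normalized reads in WT and 965, 988 and 991 in N275D (-0.32, limma adjusted p = 2.99e-05), and Coa7 was the largest fall among those of complex IV (-0.45, adjusted p = 7.23e-05). Of 13 genes of coenzyme Q synthesis 3 fell and 2 rose, from Pdss1 at -0.36 to Coq8a at 0.72. Of 14 regulators of mitochondrial biogenesis and of mitochondrial DNA expression 7 fell, with a median of -0.12 and the largest fall in Ppargc1b (-0.49), a coactivator of mitochondrial genes.

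Translation genes of the mitochondrion and of the cytosol went in opposite directions. Of 78 mitochondrial ribosomal protein genes, 41 fell and 1 rose (median -0.16), whereas of 79 cytosolic ribosomal protein genes 2 fell and 30 rose (median 0.074). Of 13 enzymes of the tricarboxylic acid cycle, 6 fell (median -0.082), with Dlst the largest (-0.28). Of 12 mitotic genes 9 fell and 1 rose (median -0.16), with the largest fall in Cdc20 (-0.36). Against the 26.1% of all genes called lower, the share was 29.4% for assembly factors outside the rule, 23.1% for coenzyme Q synthesis, 46.2% for the tricarboxylic acid cycle and 50% for the biogenesis regulators. All 13 enzymes of the cycle and all 12 mitotic genes had a mean above 1000 normalized reads. At that level 40.7% of all genes were called lower, so the share for the cycle was near its background. The part of cell division in the members' values was not tested.

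**Figure D5:**
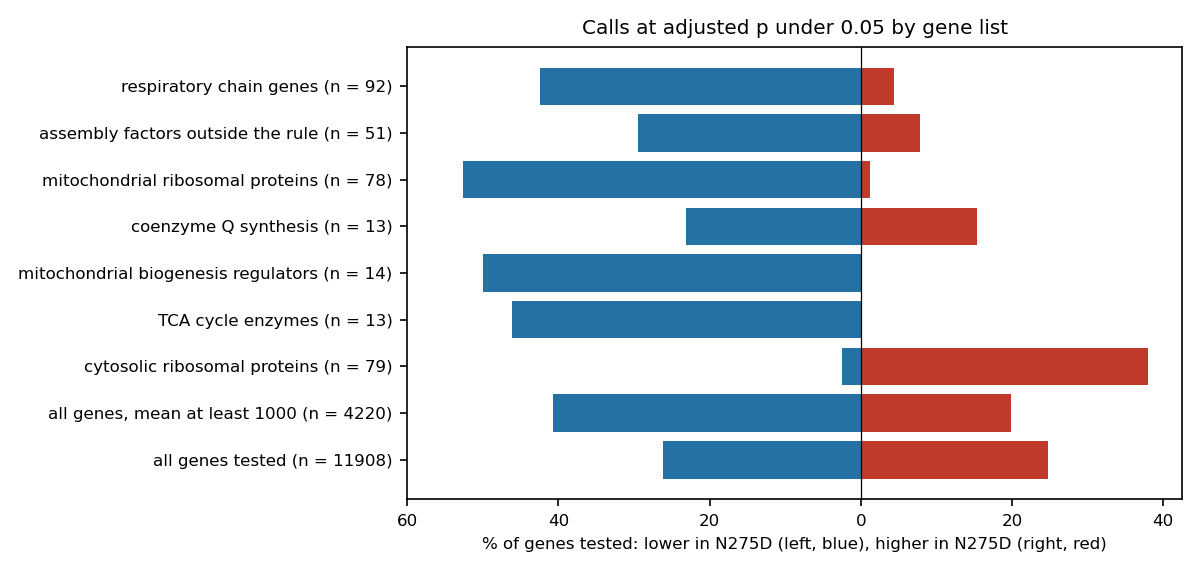
Share of the genes tested in each list that limma called lower in N275D (blue, to the left) or higher (red, to the right), with the number tested beside each name. Respiratory chain genes (42.4% lower, 4.35% higher) lie between all genes with a mean of at least 1000 (40.7% lower, 19.9% higher) and mitochondrial ribosomal protein genes (52.6% lower, 1.28% higher), and cytosolic ribosomal protein genes are the reverse (2.53% lower, 38.0% higher).

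Promoters of respiratory chain genes often hold a site for NRF-1, a transcription factor of nuclear-encoded mitochondrial genes. The 250 bases before each gene start in RefSeq promoters (GRCm38.p6, the build mm10) were searched on both strands for the NRF-1 core GCGCATGC, for the ETS-family site CCGGAAGT that GABP binds, and for ACGTG, the core of the hypoxia response element. None of these strings contains another. A promoter was found for 77 of 96 members. The NRF-1 core was present in 10 of the 77 (13.0%), against 2.56% of all genes with a promoter and 5.12% of the genes tested that have one. It was in 4 of the 32 members called lower (12.5%) and in 6 of the 42 not called (14.3%), shares that lie close together. The ETS site was in 3 members (3.90%), against 3.23% of all genes and 7.04% of those tested. ACGTG was in 16 members (20.8%), against 18.5% of all genes and 25.7% of those tested, and was found in 5 of the 32 called lower (15.6%) and 11 of the 42 not called (26.2%). A match of letters is a description and does not show a bound site.

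The stretches around the NRF-1 core are shown for members on both sides of the call, namely Ndufaf4 and Sdhb, which fell, and Cycs and Cox6a1, which were not called. They are read from 5′ to 3′ on the strand of the gene, and capitals mark the core or its reverse complement, which overlap to form a longer palindrome in Ndufaf4 and Cox6a1. The capitals begin 113 bases before the start in Ndufaf4 (chr4:24897944-24898005, plus strand), 54 in Sdhb (chr4:140961191-140961250, plus strand), 60 in Cycs (chr6:50566596-50566655, minus strand) and 162 in Cox6a1 (chr5:115349085-115349146, minus strand).
Ndufaf4: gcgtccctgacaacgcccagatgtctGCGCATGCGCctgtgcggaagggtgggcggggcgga
Sdhb: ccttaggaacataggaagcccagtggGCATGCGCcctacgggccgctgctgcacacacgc
Cycs: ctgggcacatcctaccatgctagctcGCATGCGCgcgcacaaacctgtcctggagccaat
Cox6a1: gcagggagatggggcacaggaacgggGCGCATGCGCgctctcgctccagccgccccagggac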

How the data were processed

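The 3 WT and 3 RORγtN275D Th17 RNA-seq libraries were grouped by the genotype in their labels. According to the methods, the authors trimmed the reads and used STAR for alignment to mm10, featureCounts for counting and DESeq2 for the comparison. Versions, the annotation and the treatment of reads with several matches are not given in the sources used here. The library kit differs between the methods (DNBSEQ, strand-specific) and the labels (a directional kit after poly-A selection). In the deposited signal values, a gene's read count was scaled by a factor common to its library, since 100% of values in each library were whole multiples of that factor within 1e-06, and reads obtained by dividing by it were used only to state depth and counting noise. Columns that hold the authors' fold changes, q-values and group averages were not used.

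Genes with a mean of at least 10 were tested with limma (version 3.58.1, R 4.3.3, trended eBayes, 12.0 prior degrees of freedom) on log2(normalized reads + 1), with no block, at a Benjamini-Hochberg adjusted p under 0.05. Replicate numbers did not pair the libraries, since deviations of same-numbered libraries correlated at -0.045, 0.041 and -0.083. Members and gene lists were chosen with earlier results of these data known. Named genes, of which 1 is not reported here, were tissue-specific forms and their partners, the largest rises and falls of each class, calls at 2-fold, fixed core subunits, and the largest rise and fall of a list. Alternatives were other pseudocounts, filters, scalings and priors, a block, and each library left out. The script was tested on simulated data. Lengths came from GENCODE M21, and coordinates and promoters from RefSeq.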

Additional observations from a re-analysis of the deposited data

How the results depend on the processing

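Counts of members called lower (39) and higher (4), their median log2 fold change (-0.11) and the number of all genes called (6056) moved by less than 1.5 times with a pseudocount of 0.1 or 10, TMM scaling, or the filter set to any mean above 0 or to 100. Without a trend in eBayes, 26 members were lower and 3 higher, with 29 of the 43 calls kept. Quantile normalization gave 31 lower and 7 higher, the added ones being Atp5d, Atp5h and Ndufv2 (named after their values were seen), and centring on genes with a mean of at least 1000 gave 19, 8 and a median of -0.040. Without each library in turn, members lower ranged from 27 to 43, members higher from 2 to 6, the median from -0.13 to -0.078 and all genes called from 5158 to 6398, with the lowest lower count without N275D replicate 1 and the lowest higher count without N275D replicate 3. The replicate block, for numbers that did not pair the libraries, gave 38 members lower, 4 higher and 5727 genes in all, and 3 calls were lost, those of Cox8a and Ndufaf8 among them.

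Of 565 values of single named genes under alternatives, 492 kept their direction and side of the threshold, 55 lost the call, 2 gained it and 16 turned sign, all 16 in genes that were not called. Uqcrfs1 turned to 0.0035 with TMM scaling. Quantile normalization gave 0.061 for Uqcrfs1, 0.054 for Cox4i1, 0.021 for Cox5a, 0.0058 for Ndufv1 and 0.00090 for Cox6a1, and centring gave 0.065, 0.050, 0.017, 0.015 and 0.0013 for the same genes. With each library left out, Uqcrfs1 ranged from -0.023 to 0.018, Cox5a from -0.086 to 0.014 and Cox4i1 from -0.034 to 0.0054. The cause of these changes was not tested. The planned tests of read counts with edgeR and DESeq2 were not run, although the values are whole multiples of 1 factor per library, so the calls were not compared with those of a count model. Differences of a few percent lie near the spread of the libraries, since the members' SD within a genotype had a median of 0.075 (log2).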
